A study of Ovis aries with 16 samples.

Results

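Extracellular vesicles (EVs) isolated from sheep serum were compared with the serum of the same letter before surgery, by the miRNA names that took a larger or a smaller share of the counts in the vesicles. There were 10 libraries, 5 of serum and 5 of EVs, out of 16 in the series, and they formed 5 pairs, lettered A to E in the sample titles. A share is the percent of all counts of a library that one name held. A name was called well counted where it was above 0 in all 10 libraries, and 393 of the 1105 names of the table met this (35.6%), among them 13 piRNA names. Of these 393, 49 (12.5%) had a larger share in EVs than in serum in every pair, 4 (1.02%) had a smaller share in every pair, and 340 changed direction between pairs.

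The study followed adolescent sheep with a normal heart of 2 ventricles through a single-stage Fontan operation, in which blood returning from the body is led straight to the lung arteries. All 10 libraries were taken before that operation and carry the treatment label Control. Letters D and E recur among the libraries taken after it. The EV samples were the 70 to 1000 nm particles that a size-exclusion column separates from serum, and the serum samples were RNA of serum labelled as such. The EV label thus rests on particle size, and small-RNA counts hold no vesicle protein with which to check it. Libraries after surgery (3 pairs, lettered D, E and F, on day 6 or 7) were used only as further values of the same names. The letters were read as animals. No source used here states it, so p-values describe how far these libraries vary, and part of that variation may be technical.

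Most miRNA in blood is held outside vesicles, bound to Argonaute proteins and lipoproteins, and a smaller pool is carried inside vesicles that cells release. Red blood cells are very rich in a few miRNAs such as miR-486-5p, miR-16-5p, miR-451a and miR-92a-3p, which reach serum when the cells break, whereas the let-7 family is found in nearly every cell type. Shares are relative, so a name can take a larger share because it is more abundant or because another name is less so.

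The pairs differed in depth, and 1 library stood apart. Totals ran from 76988 to 639207 counts in serum and from 65537 to 567514 in EVs. EV libraries were shallower than the serum library of their letter in pairs A, B, C and E (EV total over serum total 0.430, 0.119, 0.888 and 0.548) and deeper in pair D (3.59). Serum D was the shallowest and flattest of the serum libraries. Its 10 most abundant names held 30.0% of its counts, against 63.5% to 74.6% in the other 4 serum libraries and 31.9% to 63.0% in EVs. Over the well-counted names, its Spearman correlation with the other serum libraries was 0.43 to 0.55, whereas those libraries had 0.72 to 0.83 with each other. The main counts over all pairs are therefore also given without pair D. The widest Wilson 95% interval of a share extended 0.275 percentage points from its centre, or 0.0760 for shares under 1%, which covers counting error only.

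Most well-counted names, taken one by one, had a larger share in EVs in 4 of the 5 pairs. The median log2 ratio of EV share to serum share over the 393 names was 1.48 in pair A, 2.04 in pair B, 1.16 in pair C, -0.64 in pair D and 1.52 in pair E, a mean of 1.11 with an SD of 1.03 over pairs. Summed, the 393 names held less of the EV library than of the serum library in those 4 pairs (95.9% of serum and 77.7% of EV counts in A, 98.4% and 88.3% in B, 98.0% and 92.5% in C, 95.5% and 83.9% in E) and more in D (79.6% and 86.8%). The number of names with a larger share in EVs was 317 in A, 310 in B, 325 in C, 129 in D and 319 in E. Pair D was thus the only one of the 5 in which most names had a smaller share in EVs, and it was also the only pair with a deeper EV library. Whether depth, the serum D library or the animal sets this cannot be told apart within 1 pair.

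**Figure D1:**
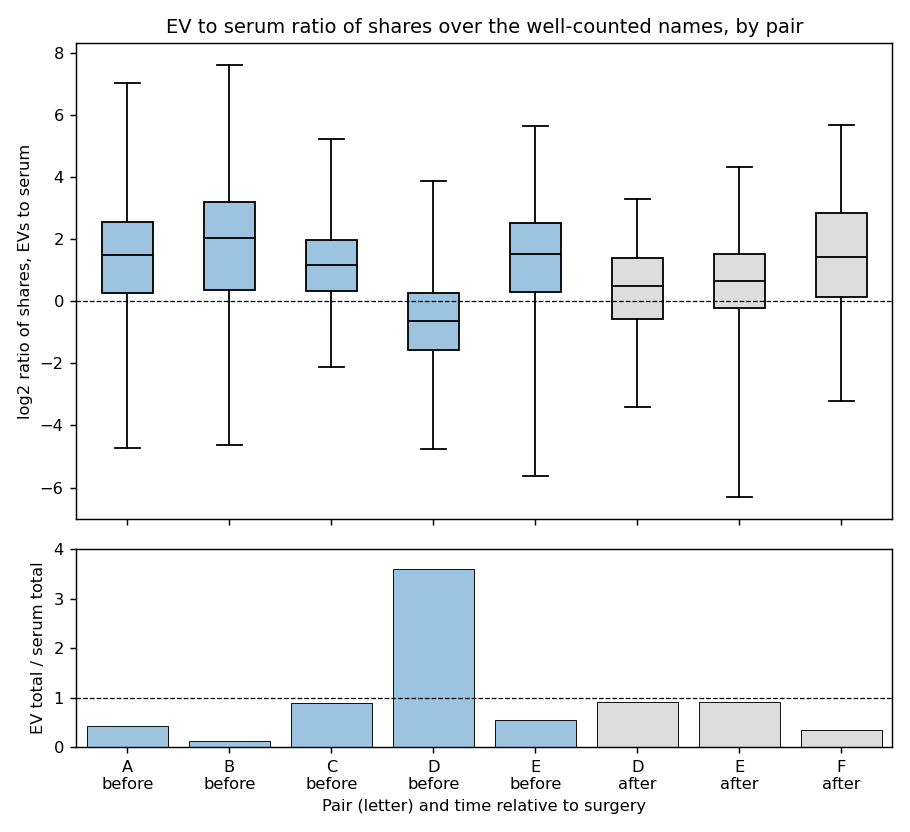
The upper panel shows, for each pair, the log2 ratio of EV share to serum share over the well-counted names (393 before surgery in blue, the 375 of them above 0 in all 6 later libraries in grey); boxes span the quartiles, the line is the median and whiskers reach the extremes. The lower panel shows the EV total divided by the serum total on a linear axis, which is above 1 in pair D before surgery, the pair with a median of -0.64.

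Without pair D, 236 names (60.1%) had a larger share in EVs in all 4 remaining pairs and 21 (5.34%) a smaller one. Of these, 187 and 17 went the other way in pair D. The 49 names are thus those of the 236 whose larger share also held in pair D, where most names had a smaller one. The 4 are those of the 21 whose smaller share also held in pair D. Pair D gave the ratio nearest to 0 for 20 of the 49.

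The shift of the whole set was carried by the less abundant names. The names were ordered by mean share and cut into 4 bins. In the bin of the 99 most abundant names (at least 0.0902% on average) the median log2 ratio was 0.22 in A, 0.012 in B, 0.35 in C, 0.23 in D and 0.35 in E. In the 3 lower bins the pair medians lay between 1.41 and 2.79 in pairs A, B, C and E and between -1.0 and -0.95 in pair D. The most abundant bin held 12 of the 49 names larger in every pair and 3 of the 4 names smaller in every pair. The abundant names are described first, since their shares moved least with the library.

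**Figure D2:**
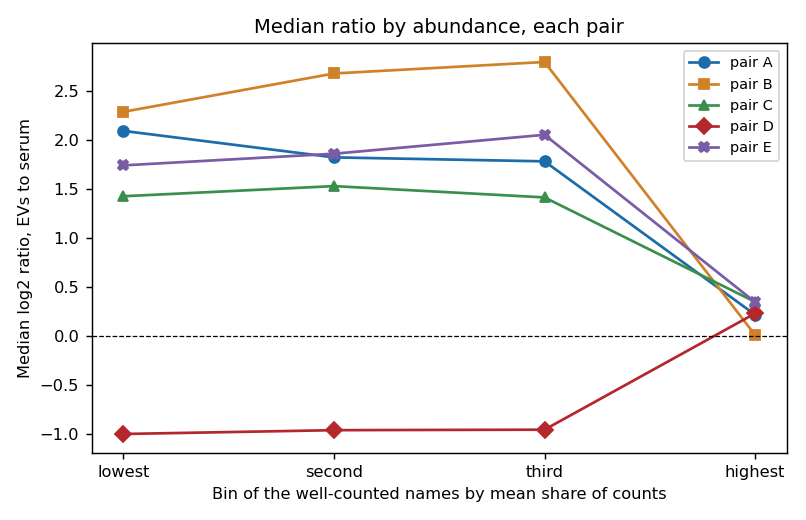
The median log2 ratio of EV share to serum share is plotted for each of 4 bins of the well-counted names, ordered by mean share over the 10 libraries, with 1 line for each pair. The 5 pairs lie apart in the 3 lower bins and come together between 0.012 and 0.35 in the highest bin.

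The let-7 family was the largest group among the abundant names with a larger share in EVs. These miRNAs share 1 seed and repress growth and developmental timing genes, and all 9 members listed were well counted. Of these, 5 had a larger share in EVs in every pair (let-7b, let-7c, let-7d, let-7g and let-7i, all 5p arms), the other 4 (let-7a, let-7e, let-7f and miR-98, 5p arms) in 4 pairs, and none had a smaller share in every pair. Beside this, 12.5% of all 393 names and 12 of the 99 most abundant had a larger share in every pair. Without pair D, 6 of 9 had a larger share in all 4 pairs, beside 60.1% of all 393 names. The median over the 9 members of their mean log2 ratio was 0.64, against 1.06 over all 393 names, most of them less abundant. In pairs A to E the family's median log2 ratios were 0.26, 1.42, 0.35, 0.83 and 0.18. Over the 99 most abundant names they were 0.22, 0.012, 0.35, 0.23 and 0.35, though not all 9 members were in that bin (let-7e-5p averaged 0.0548%). Together the 9 members held 2.07% to 7.19% of serum counts (median 4.54%) and 3.61% to 8.01% of EV counts (median 6.77%), and their sum was larger in EVs in 5 of 5 pairs. Reads of near-identical members can be assigned to the wrong one, so single let-7 names are less certain than the sum.

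The member with the steadiest difference was let-7i-5p. It held 0.511%, 0.209%, 0.241%, 0.361% and 0.385% of serum counts in pairs A to E, and 1.02%, 0.531%, 0.424%, 0.734% and 0.619% of EV counts in the same order. Every EV value was above its serum partner, by 1.61 to 2.54 times, although the groups overlapped because serum A exceeded EV C. The mean log2 ratio was 0.97 with an SD of 0.25 over the 5 pairs. The most abundant of the 5 was let-7b-5p, with 3.14%, 1.21%, 1.71%, 2.03% and 2.0% of serum counts and 3.77%, 2.64%, 1.71%, 2.39% and 3.53% of EV counts. Its pair C values differed by less than counting error (9716 EV counts and 10935 serum counts, log2 ratio 0.0011), so its direction there has no weight. The other 3 had mean log2 ratios of 1.02 (let-7c-5p, SD 0.56), 0.70 (let-7g-5p, SD 0.61) and 0.64 (let-7d-5p, SD 0.40). The sum of let-7 and each of these directions depend on the library total as divisor: under TMM factors no member kept a larger share in every pair and the family's median was -0.54, with -0.49 under the RLE factors of DESeq2 and -0.47 after centring each pair on its own median.

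Members of the miR-23, miR-24 and miR-27 clusters formed the next group. These are transcribed together and are studied in blood vessel growth. Of the 5 well-counted members, 3 had a larger share in EVs in every pair and the other 2 in 4 pairs, beside 12.5% of all 393 names in every pair. Without pair D the count was also 3 of 5, beside 60.1% of all 393. For miR-24-3p the serum shares were 0.530%, 0.355%, 0.308%, 0.740% and 0.427% in pairs A to E and the EV shares 0.790%, 0.507%, 0.528%, 1.31% and 0.497%. Both libraries of pair D were the highest of their group, and the EV share was above its partner by 1.17 to 1.77 times (mean log2 ratio 0.58, SD 0.24). For miR-27b-3p the serum shares were 0.204%, 0.0986%, 0.125%, 0.323% and 0.157%, and the EV shares 0.284%, 0.175%, 0.264%, 0.442% and 0.329%. Its ratio was 1.37 to 2.11 and its Wilson intervals were apart in all 5 pairs. The third was miR-27a-3p, with a mean log2 ratio of 0.90 (SD 0.58) that was 0.08 in pair E. The members miR-23a-3p and miR-23b-3p were smaller in EVs in pair B alone, by log2 ratios of -1.17 and -1.78. As for let-7, the list's median turned negative under TMM (-0.60), RLE (-0.55) and centring (-0.53).

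**Figure D3:**
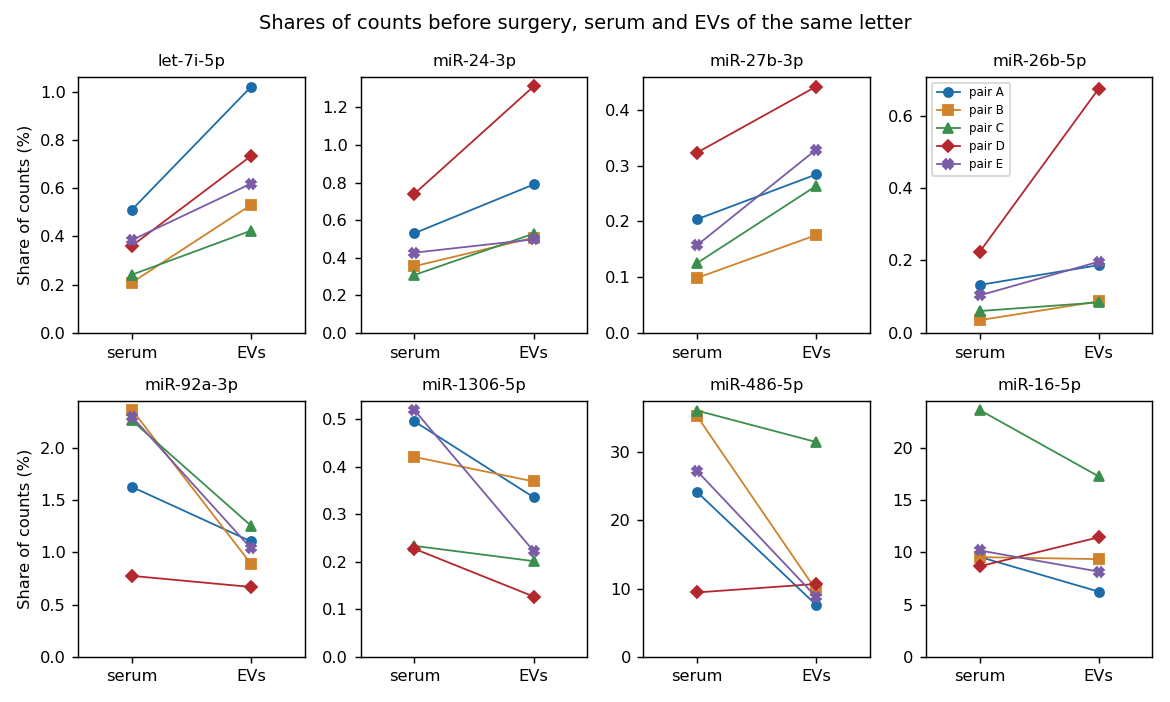
Each panel shows the share of counts (percent, linear axis from 0) of 1 name in the serum and the EV library of each pair, joined by a line. Lines of the 4 upper panels (let-7i-5p, miR-24-3p, miR-27b-3p, miR-26b-5p) slope up in all 5 pairs, those of miR-92a-3p and miR-1306-5p slope down in all 5, and those of miR-486-5p and miR-16-5p slope down in pairs A, B, C and E and up in D.

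The other abundant names with a larger share in EVs in every pair belonged to several families. Both miR-26 names, regulators of growth, were among them: miR-26b-5p ran from 0.0351% (B) to 0.223% (D) in serum and from 0.0841% (C) to 0.675% (D) in EVs, with a mean log2 ratio of 0.96 (SD 0.49), and miR-26a-5p had 0.90 (SD 0.58). The liver and kidney miRNA miR-192-5p had serum shares of 0.436%, 0.893%, 0.527%, 1.22% and 0.322% and EV shares of 0.526%, 1.36%, 0.819%, 1.69% and 1.3%. Its ratio was 1.21 to 1.55 in pairs A to D and 4.03 in pair E. In the same pair the liver miRNA miR-122-5p went from 0.312% of serum counts to 7.97% of EV counts, while over the other 4 pairs its log2 ratio ran from -1.45 to 0.14. The remaining abundant names were miR-103a-3p, which acts on insulin sensitivity (mean log2 ratio 0.58, SD 0.43), the brain-rich miR-128-3p (0.63, SD 0.29) and miR-20a-5p, a growth-promoting member of the cluster that also encodes miR-17 (0.67, SD 0.63).

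**Figure D4:**
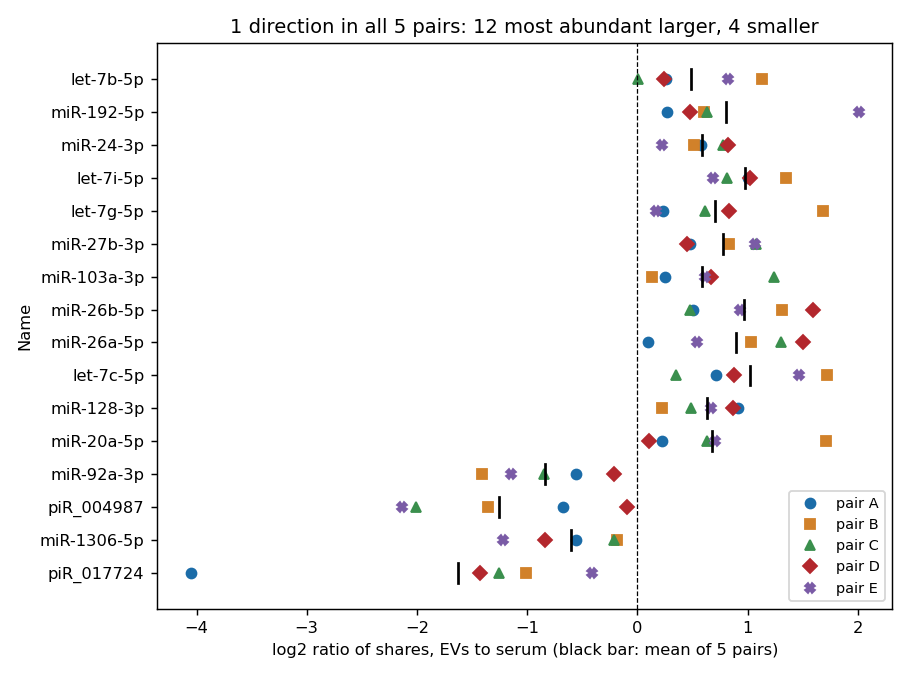
The log2 ratio of EV share to serum share is plotted for each pair (symbols) and as the mean of the 5 pairs (black bar) for the 12 most abundant names with a larger share in EVs in every pair and for the 4 names with a smaller one. Ratios of the 12 names lie between 0.0011 and 2.01, and piR_017724 reaches -4.05 in pair A.

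The 4 names with a smaller share in EVs in every pair were 2 miRNAs and 2 piRNA names. The erythroid-rich miR-92a-3p, a product of the cluster that encodes miR-17, held 1.63%, 2.37%, 2.26%, 0.775% and 2.30% of serum counts in pairs A to E. Its EV shares were 1.10%, 0.890%, 1.25%, 0.669% and 1.04%. Outside pair D every serum value was above every EV value, and the ratio was 0.376 to 0.863 over the 5 pairs (mean log2 ratio -0.84, SD 0.47). It was the only one of the 4 whose Wilson intervals were apart in all 5 pairs. In edgeR its fitted log2 fold change was -2.12 (SE 0.846, adjusted p = 0.335).

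The second miRNA was miR-1306-5p, which in humans is cut from the transcript of DGCR8, itself a component of the miRNA processing complex. Its serum shares were 0.496%, 0.421%, 0.234%, 0.227% and 0.519%, and its EV shares 0.336%, 0.369%, 0.201%, 0.127% and 0.222%. The groups overlapped, and the ratio was nearest to 1 in pairs B and C (0.878 and 0.862). The fitted log2 fold change was -1.81 (SE 0.664, edgeR adjusted p = 0.335).

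piRNAs are guides of the Piwi proteins that silence mobile elements in the germ line, and 13 piRNA names were well counted. None of them had a larger share in EVs in every pair, and 2 had a smaller one. Without pair D, 4 had a larger and 4 a smaller share in all 4 pairs, beside 60.1% and 5.34% of all 393 well-counted names. All 30 piRNA names of the table, well counted or not, summed to 1.68% to 8.70% of serum counts (median 3.22%). In EVs they summed to 1.40% to 2.35% (median 1.90%), smaller than in serum in 4 of 5 pairs. For piR_004987 the serum shares were 0.759%, 0.317%, 0.465%, 0.226% and 0.796% and the EV shares 0.476%, 0.124%, 0.115%, 0.212% and 0.181%. The difference in pair D (174 serum counts, 587 EV counts, log2 ratio -0.09) was within counting error. The name piR_017724 had serum counts of 116, 187, 287, 42 and 109 and EV counts of 3, 11, 107, 56 and 45, so its log2 ratio of -4.05 in pair A rests on 3 EV counts. The median of the mean log2 ratios over the 13 well-counted piRNA names was -0.61, against 1.06 over all well-counted names. In pairs A to E the median log2 ratios of the 13 were -0.92, 0.99, -1.20, -0.15 and -1.50. Over the 99 most abundant names they were 0.22, 0.012, 0.35, 0.23 and 0.35, though not all 13 were in that bin (piR_017724 averaged 0.0390%).

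The ratio of one name to another does not depend on the library total. The count of let-7i-5p divided by that of miR-92a-3p, a pair of names chosen after their values were seen, was 0.0882 to 0.466 in serum and 0.338 to 1.10 in EVs, and it was 2.36 to 6.77 times larger in EVs within pairs. The count of miR-24-3p divided by that of miR-92a-3p was likewise 2.05 to 3.8 times larger in EVs. Any of the 49 names against any of the 4 has this direction in every pair by construction, and which of them changed in amount was not measured.

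Among the 49 names, those with the largest ratios were low in serum counts. The largest mean log2 ratio of the 49 was that of miR-4459, 2.95 (SD 1.13), with 9, 21, 34, 28 and 30 counts in serum, and with 50, 33, 117, 1472 and 46 in the vesicles. EV D alone held 0.532% of its counts as this name, while the other EV libraries held 0.0206% to 0.0737%. The next were miR-1265 (2.91, SD 2.17), with 1 count in serum A and 4 in serum E, and miR-875-5p (2.74, SD 1.64), with 11 to 58 counts in serum. Of the 49 names, 13 had fewer than 10 counts in at least 1 library, and 13 had at least 50 in all 10. Wilson intervals of the 2 shares were apart in all 5 pairs for 9 of the 49 names, in 4 pairs for 25, and in fewer for 15. Intervals were compared only for names chosen for 1 direction, so no share over all well-counted names stands beside these counts.

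Serum and EV shares did not overlap at all for 5 names, all higher in EVs (1.27% of the well-counted names), and for none lower (0.0%). Without pair D, 92 of the 393 well-counted names did not overlap higher and 8 lower, miR-92a-3p among the 8. In pairs A, B, C and E, 60.1% of the 393 had a larger share in EVs and 5.34% a smaller one. The 5 were miR-17-5p (serum 0.0128% to 0.0372%, EVs 0.0442% to 0.0665%) and the endothelial and smooth muscle miRNA miR-222-3p (serum 0.0141% to 0.0291%, EVs 0.0305% to 0.0676%). The others were miR-196a-5p of the HOX gene clusters (serum 0.00316% to 0.0117%, EVs 0.0141% to 0.0772%), miR-1247-3p (0.00416% to 0.0314% and 0.0349% to 0.129%) and miR-4780 (0.00597% to 0.0234% and 0.0267% to 0.105%). All 5 had 5 to 213 counts in the serum libraries, so their shares are less precise than those of let-7.

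Some further names of the 49 have well-known roles and were picked out by name. The inflammation-linked miR-146a-5p and miR-155-5p had mean log2 ratios of 1.58 (SD 0.73) and 1.33 (SD 1.01), and miR-29b-3p, which represses collagens, had 1.17 (SD 0.46). For miR-29b-3p the serum libraries held 25, 158, 76, 29 and 34 counts and the EV libraries 40, 37, 106, 232 and 42. Also larger in every pair were miR-22-3p, studied in heart muscle growth (0.74, SD 0.57), miR-378a-3p, encoded in a regulator of mitochondrial metabolism (0.57, SD 0.64), and miR-296-3p (1.22, SD 0.28).

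Which names kept 1 direction changed with the divisor. Under 6 scalings (library totals, TMM, RLE, totals without miR-486-5p, totals without the red blood cell list, and centring on the pair median), 9 names were larger in EVs in every pair under all 6. These were miR-10b-3p, miR-1247-3p, miR-196a-5p, miR-3115, miR-323a-5p, miR-4707-3p, miR-4780, miR-582-5p and miR-875-5p, and none was among the 99 most abundant. Of them, miR-3115 was the most even over pairs, at 3.66 to 8.80 times the serum share, with 7, 23, 51, 8 and 36 serum counts and 11, 24, 210, 130 and 104 EV counts. The names miR-1306-5p and piR_017724 were smaller in every pair under all 6. The abundant let-7, miR-24, miR-26, miR-27, miR-103a, miR-128 and miR-192 names did not keep their direction under TMM, RLE or centring.

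The summed share of red blood cell miRNAs was smaller in EVs in 4 of 5 pairs, although members differed. The 9 well-counted names of that list had 36.8%, 50.8%, 68.1%, 21.4% and 41.6% of serum counts in pairs A to E, and 16.1%, 21.1%, 57.7%, 25.6% and 19.4% of EV counts. The EV share minus the serum share was above 0 in pair D only, with a mean of -15.8 percentage points (SD 13.1), and of -20.7 without pair D (SD 7.95). Of the 9, only miR-92a-3p had 1 direction in all 5 pairs, and 4 (with miR-486-5p, miR-486-3p and miR-16-5p) were smaller in pairs A, B, C and E. The low-count miR-144-3p and miR-144-5p were larger in EVs in 4 pairs, and the erythroid miR-451a, at log2 ratios of 0.01, -2.59, 1.26, -0.13 and 0.13, had no common direction. For miR-486-5p, made from the erythroid ANK1 gene and the most abundant name in every serum library before surgery, the serum shares were 24.1%, 35.3%, 36.1%, 9.43% and 27.2%. Its EV shares were 7.59%, 9.74%, 31.5%, 10.7% and 8.76%, which was 0.872 times the serum share in pair C and 1.13 times in D, and 0.276 to 0.322 times in the others. For miR-16-5p the shares were 9.57%, 9.55%, 23.7%, 8.67% and 10.2% in serum and 6.24%, 9.36%, 17.3%, 11.5% and 8.16% in EVs. With the list left out of the totals, 29 of the 49 names were larger in every pair, and with miR-486-5p left out, 32. The part of the red blood cell names in the 49 was not tested.

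Below the serum share in pairs A, B, C and E but above it in pair D were 17 names, miR-486-5p and miR-16-5p included. Also among them were the platelet-rich miR-191-5p (serum 0.390% to 1.02%, EVs 0.175% to 0.721%, log2 ratios of -1.93 to -0.79 in the 4 pairs and 0.89 in D), miR-30d-5p (-2.25 to -1.14, and 0.51 in D) and the lymphocyte miRNA miR-342-3p (-1.97 to -0.48, and 0.99 in D). After miR-486-5p and miR-16-5p the most abundant of the 17 were miR-6743-5p and miR-6887-3p, which had mean log2 ratios of -1.83 and -0.83.

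Lists of cell-type and family names held few well-counted names each. Their counts of names with 1 direction stand beside 12.5% larger and 1.02% smaller over all well-counted names. The platelet list had 3 of 7 larger (miR-24-3p, miR-28-3p and the joint name miR-151b/151a-5p), while miR-191-5p, the next in abundance after miR-24-3p, was not among them. The myeloid list had 2 of 6, the liver list 2 of 5 (miR-192-5p and miR-885-5p), the endothelial list 1 of 5 (miR-222-3p), the neuron list 1 of 1 (miR-128-3p), the miR-320 family 1 of 5, the fibrosis list 1 of 6 and the clusters of miR-17 and its relatives 2 of 9 larger and 1 smaller. The GC-rich names that can match fragments of other RNAs had 3 of 12 (miR-663b, miR-6087 and miR-6125), and 1 of them that did not keep 1 direction, miR-1915-3p, took 15.2% of EV B. No member of the lymphoid (4), epithelial (5), smooth muscle (2), miR-30 (3), miR-10 with miR-99 and miR-125 (7) or 14q32 (8) lists had 1 direction in every pair. Of the heart and skeletal muscle list only miR-208b-3p was well counted, and it was larger in EVs in 4 pairs and smaller in D. Without pair D the larger names were 7 of 12 GC-rich, 4 of 7 platelet, 2 of 6 myeloid, 2 of 5 liver, 4 of 6 fibrosis, 3 of 5 epithelial, 5 of 8 14q32 and 2 of 4 lymphoid names, beside 60.1% over all well-counted names. They were also 1 of 5 endothelial, 2 of 5 miR-320, 1 of 2 smooth muscle and 1 of 1 neuron names, and 4 of 9 in the clusters of miR-17 and its relatives. None was larger among 7 miR-10, miR-99 and miR-125 names, 3 miR-30 names and 9 red blood cell names. With so few members a list, these are counts and no test.

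**Figure D5:**
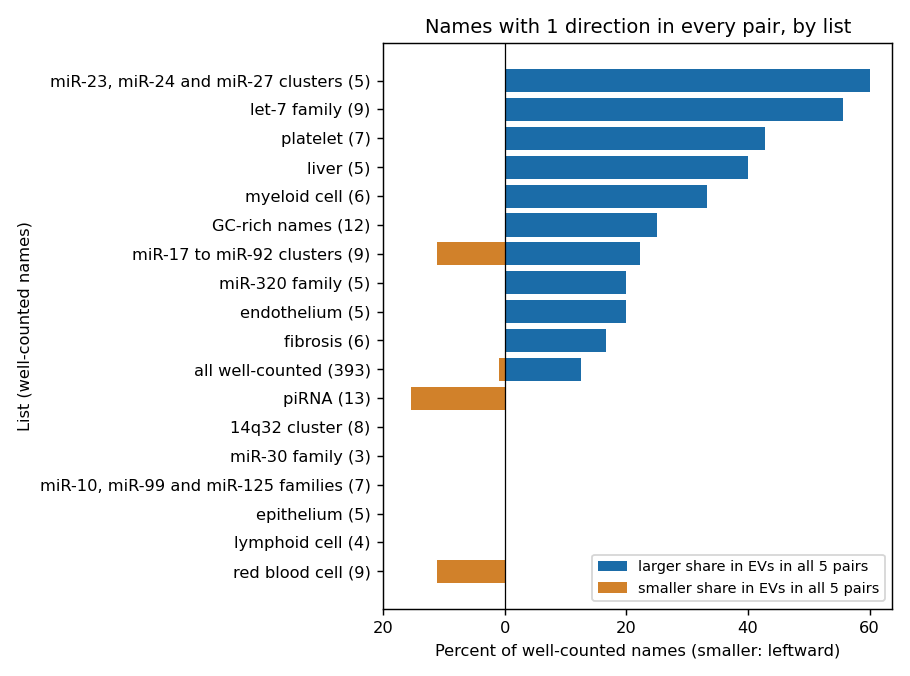
For each list with at least 3 well-counted names (number in brackets), bars to the right give the percent of names with a larger share in EVs in all 5 pairs and bars to the left the percent with a smaller share. The row of all 393 well-counted names shows 12.5% to the right and 1.02% to the left, and the let-7 list has 5 of 9 names to the right.

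No name passed the test across the table. In edgeR's quasi-likelihood test with the letter as a block, 0 of 768 names tested were higher in EVs (0.0%) and 0 lower (0.0%) at an adjusted p under 0.05. At an unadjusted p under 0.05 there were 55 higher and 47 lower, and the smallest adjusted p was 0.335. Of the 49 names, 25 had a fitted log2 fold change above 0 and 24 below 0 (median 0.013, adjusted p from 0.335 to 0.984 in edgeR). All 4 names with a smaller share had fitted fold changes below 0 (-2.66 to -1.81, each with an edgeR adjusted p of 0.335). A single name in 5 pairs cannot go below p = 0.0625 in a two-sided exact sign-flip permutation test, so 1 direction in every pair is a description.

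Other fits called names, and leaving out pair D did so too. Without the block, edgeR called 21 names higher (2.73%) and 2 lower (0.26%), and the 2 lower ones were the only well-counted names among them (piR_004987, adjusted p = 0.0488, and piR_017723, adjusted p = 0.0355). With the block but without pair D, 31 of 694 names were lower in EVs (4.47%) and 0 higher, 28 of them well counted. All 4 names with a smaller share in every pair were among these (miR-92a-3p log2 fold change -2.69, edgeR adjusted p = 0.0247), as was miR-486-5p (-3.07, edgeR adjusted p = 0.0358). DESeq2 with the block called 156 higher (20.3%) and 79 lower (10.3%), and 37 of these were well counted, 5 higher and 32 lower. The 4 smaller names were among its lower calls, and of the 49 names only miR-4780 was called (log2 fold change 1.57, DESeq2 adjusted p = 0.0387). The 4 and the 49 were chosen by their direction in these same counts. Calls for them in any of these fits are therefore no separate support.

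After surgery, the 3 later pairs gave further values, of which letters D and E recur from before. The median log2 ratio over well-counted names was 0.50 in D, 0.65 in E and 1.42 in F, so pair D no longer stood apart, with EV and serum totals of 473978 and 517833 counts. Of the 49 names, 26 (53.1%) had a larger share in EVs in all 3 later pairs, against 144 of all 393 (36.6%). By letter, the share of the 49 that was larger was 81.6% in D against 62.1% of all 393, 71.4% against 69.2% in E and 79.6% against 78.4% in F, so the gap was mostly in D, a letter also used to choose the 49. For let-7, 7 of 9 members did so, let-7i-5p with log2 ratios of 1.28, 1.53 and 1.34. For miR-24-3p the ratios were 0.81, 1.36 and 1.64, for miR-27b-3p 1.13, 2.52 and 2.21, and for miR-27a-3p 1.59, 1.58 and 1.55. Others changed direction: miR-192-5p had 2.37, -0.43 and -0.98, and miR-222-3p 1.74, -0.12 and -0.91. In pair F, let-7c-5p (-0.36), miR-26a-5p (-0.49), miR-103a-3p (-0.04) and miR-128-3p (-0.24) had a smaller share in EVs. Of the 4 smaller names, miR-92a-3p was smaller in EVs in all 3 later pairs (-1.40, -0.61 and -1.19), miR-1306-5p in D and E only (-1.60 and -1.71, against 0.14 in F), piR_004987 was larger in all 3 (0.48, 0.81 and 1.33), and piR_017724 was larger in D and near 0 in E and F (0.81, -0.04 and -0.07).

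The threshold for a well-counted name was low. At its inner edge were 6 names whose lowest count was 1. Just outside it were 121 names with a count of 0 in exactly 1 library, which for 110 of them was serum B, such as miR-1290 with 0 in serum B and 5 to 265 counts elsewhere. Names at 0 throughout one fraction were set aside: 98 were at 0 in all 5 serum libraries, 58 of them above 0 in all 5 EV libraries, and 18 were at 0 in all 5 EV libraries. Since the names are human and the animals sheep, the 49 names were also looked up among 106 sheep miRNA genes of RefSeq, by symbol: 13 matched (26.5%), against 55 of the 393 (14%) and 0 of the 4. An unmatched name was not traced further.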

How the data were processed

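Small-RNA libraries of serum and serum EVs from sheep were made from 1 ng of RNA each with the QIAseq miRNA kit, after serum was spun at 300 xg and EVs were eluted from the column in 700 µl, per the labels' protocols. The authors deposited a table of whole-number counts, with a row for each mature miRNA or piRNA. The submitters' processing notes name the human build hg19 and bcl2fastq 2.20.0.422. How reads were aligned and counted, with which annotation and whether by molecular identifier, is not given in the sources used here. Rows carry human names, none checked against sheep sequence, and near-identical miRNAs (let-7, miR-26a and miR-26b, miR-27a and miR-27b, miR-320) can share reads. Of 1105 rows, 4 shared 2 names and 30 were piRNA.

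Shares were computed with pandas 2.3.3 as percent of the library total, and ratios with no pseudocount. Counts were fitted in R 4.3.3 by edgeR (version 4.0.16) with TMM factors, a minimum count of 10 and its quasi-likelihood test at a Benjamini-Hochberg threshold of 0.05, with the letter as a block because pairs were defined by the letters in the titles. The check of that pairing was weak: deviations from the group means correlated within letters by 0.186 (A), -0.156 (B), 0.693 (C), -0.301 (D) and -0.0911 (E). By Spearman correlation over the well-counted names, only serum C was closest to the EV library of its own letter (0.796). Serum A and serum E were closest to EV D (0.677 and 0.694), serum B to EV C (0.693) and serum D to EV B (0.653). Adjusted p are edgeR's unless DESeq2 1.42.0 or limma 3.58.1 is named. Alternatives were the fit without the block, RLE factors, library totals, no or stricter filters, counts thinned to 65537 a library, DESeq2, limma-voom and each letter left out. The edgeR script was tested on simulated data that had no letter effect. That is a check of the code, and what the blocked fit could detect in these libraries was not measured.

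Members, lists (20, with piRNA) and tests were chosen with earlier results of these data known. Names given are the 12 largest mean ratios (mean share of at least 0.01%) and the 8 highest mean shares per direction, the 10 most abundant names and up to 3 per list. Outside that rule, and named after their values were seen, are let-7c-5p, let-7d-5p, let-7e, let-7f, miR-98, miR-17-5p, miR-20a-5p, miR-22-3p, miR-23b-3p, miR-26a-5p, miR-27a-3p, miR-28-3p, miR-29b-3p, miR-144-3p, miR-144-5p, miR-146a-5p, miR-151b/151a-5p, miR-155-5p, miR-222-3p, miR-296-3p, miR-378a-3p, miR-451a, miR-486-3p, miR-582-5p, miR-663b, miR-885-5p, miR-1290, miR-6087, miR-6125 and piR_017723. Mature sequences and motifs were not used here.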

Additional observations from a re-analysis of the deposited data

Results flagged for a closer look

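In 260 sets of 5 values, 40 had a value far from the other 4 (a gap to the nearest above 0.71 of the range). Chance flags about 1 in 20 where sets are independent and values normal. The sets here share names and libraries, so the 40 cannot be set against that rate. Shares of lists are sums over all their names in the table, well counted or not.

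Letter D held many of them. In EV D these were the shares of miR-4459 (0.532%), miR-4707-3p (0.163%), miR-26b-5p (0.675%), the blood-cell miRNAs miR-142-3p (3.14%) and miR-342-3p (1.12%), the endothelial miR-126-3p (2.13%), miR-10b-5p (0.0567%) and miR-23a-3p (1.11%), and of the myeloid (6.65%), lymphoid (3.36%) and miR-23, miR-24 and miR-27 (3.37%) lists. In serum D they were miR-875-5p (0.0753%), miR-4707-3p (0.138%), miR-181a-5p (0.0922%), the heart muscle miR-208b-3p (0.0546%), the skin miR-203a-3p (1.81%), miR-29c-3p (0.173%), and the miR-23, miR-24 and miR-27 (2.26%) and 14q32 (0.659%) lists. The pair D log2 ratio of miR-203a-3p was -4.46.

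In letter C they were miR-486-5p in EVs (31.5%), miR-16-5p (23.7%) and miR-93-5p (1.13%) in serum, the red blood cell list (57.7%) and the miR-17 to miR-92 list (4.18%) in EVs, and the smooth muscle list in serum (0.701%). In letter B they were the low serum share of let-7g-5p (0.101%), miR-122-5p (6.15%), miR-320a (0.382%) and the liver list (7.34%) in serum, miR-1915-3p (15.2%) and the GC-rich list (17.0%) in EVs, and the log2 ratio of miR-23a-3p (-1.17). In letter E they were miR-122-5p (7.97%) and miR-6090 (2.59%) in EVs, and the log2 ratios of miR-192-5p (2.01), miR-122-5p (4.68) and the smooth muscle miR-143-3p (3.04). In letter A they were piR_004987 in EVs (0.476%) and the log2 ratio of piR_017724 (-4.05).

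For 2 names every pair before surgery went one way and every pair after it the other, a difference that was not tested. The mean log2 ratio after surgery was -0.29 for miR-1265, which was larger in EVs in every pair before, and 0.88 for piR_004987, which was smaller.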

How the results depend on the processing

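Counts of names larger and smaller in EVs in every pair, 49 and 4 by library totals, were 24 and 12 under TMM, 28 and 9 under RLE, 32 and 7 in totals without miR-486-5p, 33 and 6 without the red blood cell list, and 25 and 8 after centring on the pair median. They were 36 and 3 among names of at least 10 counts, 13 and 3 of at least 50, 42 and 4 in thinned libraries, 49 and 2 for miRNA names alone, and 12 and 3 among the 99 most abundant names. Centring and the last of these were added after seeing the data. With 1 letter left out the counts were 52 to 236 and 5 to 21, the highest of each without D and 52 to 63 and 5 to 6 without another letter. The mean of the pair medians, 1.11, was -0.070 under TMM and -0.017 under RLE, and 0.88 to 1.55 with 1 letter left out. The red blood cell difference of -15.8 points was -70.9 and -71.8 on the TMM and RLE scales, whose unit is no longer a percent of the library, and -20.7 to -12.3 with 1 letter left out.

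Under TMM, RLE and centring in that order, the mean log2 ratio turned negative for let-7b-5p (-0.69, -0.64, -0.62), let-7g-5p (-0.48, -0.43, -0.41), let-7i-5p (-0.21, -0.16, -0.14), miR-103a-3p (-0.60, -0.55, -0.53), miR-128-3p (-0.55, -0.50, -0.48), miR-192-5p (-0.38, -0.33, -0.31), miR-24-3p (-0.60, -0.55, -0.53), miR-26b-5p (-0.22, -0.17, -0.15) and miR-27b-3p (-0.40, -0.35, -0.33). These scalings subtract the shift of the whole table.

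The edgeR counts of 0 higher and 0 lower became 21 and 2 without the replicate block, 11 and 18 with no filter, 156 and 79 in DESeq2, 25 and 5 in limma-voom, and 0 and 1 in thinned counts. They stayed at 0 and 0 with RLE, library totals, a minimum count of 50 and the 393 names alone, and were 0 and 0 to 31 with 1 letter left out, 31 without D. The cause of these differences was not tested. Among 10 libraries, depth limits names under about 10 counts.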
